A study of Homo sapiens and Mus musculus with 4 samples.

Results

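Clusters of TEAD-bound regions were described in YAP-ERMS cells, a mouse line of embryonal rhabdomyosarcoma type derived from tumours that the co-activator YAP drives. A cluster was a chain of at least 5 neighbouring peaks on the same chromosome in which the gap from the end of a peak to the start of the next was at most 12500 bp. This rule was applied to the deposited peak positions and kept 1267 clusters. They held 8276 of the 47033 peaks of the YAP-ERMS list, or 17.6% (Wilson 95% interval 17.3% to 17.9%), and of 69714 peaks in the lists of both cell lines of the study. Of the other YAP-ERMS peaks, 16605 had no neighbour within that distance (called isolated peaks below) and 22152 lay in 8881 chains of 2 to 4 peaks (short chains).

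TEAD factors bind DNA at the M-CAT element and serve as the main DNA-binding partners of YAP1, which has no DNA-binding domain of its own. In the Hippo pathway the LATS kinases phosphorylate YAP1 and hold it in the cytoplasm, and when this brake is off YAP1 enters the nucleus and joins TEAD, mostly at enhancers away from promoters. Enhancers that lie close together are often treated as a single regulatory domain, and a distance of 12500 bp is customary for joining them. In skeletal muscle, TEAD and YAP1 act in satellite cells, the stem cells of the tissue, and embryonal rhabdomyosarcoma is a childhood tumour with features of immature muscle.

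The study used chromatin immunoprecipitation and sequencing (ChIP-seq) on 4 libraries, each the only member of its group. In YAP-ERMS, a library made with an antibody to TEAD was set against an input library of sheared chromatin. The human rhabdomyosarcoma cell line RD had a TEAD and an IgG library. The labels give the YAP-ERMS cells as coming from tumours under Myf5-Cre or Pax7-CreER, Cre drivers active in muscle progenitors and in satellite cells, without saying which of these drivers the sequenced cells carried. The labels used here give no further allele and no treatment, time or age for these cells. Sequencing depth is unknown here, and the TEAD and input values of a peak are not given separately. With 1 TEAD library per cell line no value here has a replicate error. Intervals given below take peaks as independent and cover counting error alone.

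Peak scores are the values that the authors deposited, taken here as the −log10 of the p-value against input multiplied by 10. The lowest score, 80, stands for a p-value of 1e-08. A score measures how firmly a peak was called and not how strongly TEAD was bound. A score of exactly 3100 is shared by 97 peaks of the list while others exceed it, so that value may not be on the same scale as the rest, and ranks and sums that include it are uncertain. The clusters were chosen by the positions of peaks in this same contrast, so positions, scores and widths are given as a description, with no test. No gene, promoter or motif is assigned to a cluster, since the sequence and annotation of the mouse build mm9 were not used here.

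Most clusters were small. The 523 clusters with exactly 5 peaks and the 307 with 6 peaks made up the larger part, 93 clusters had 10 or more peaks and 15 had 15 or more. The median cluster held 6 peaks over 30.7 kb (interval of the median 29.8 to 31.6 kb). The 10th and 90th percentiles of the span were 18.4 and 50.4 kb, the shortest cluster spanned 8.34 kb and the longest 172 kb. Together the clusters spanned 42.1 Mb of the genome, of which their peaks covered 11.1 Mb, or 26.4%. In the median cluster 26.3% of the span lay inside a peak, and the cluster had 2.02 peaks per 10 kb.

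**Figure D1:**
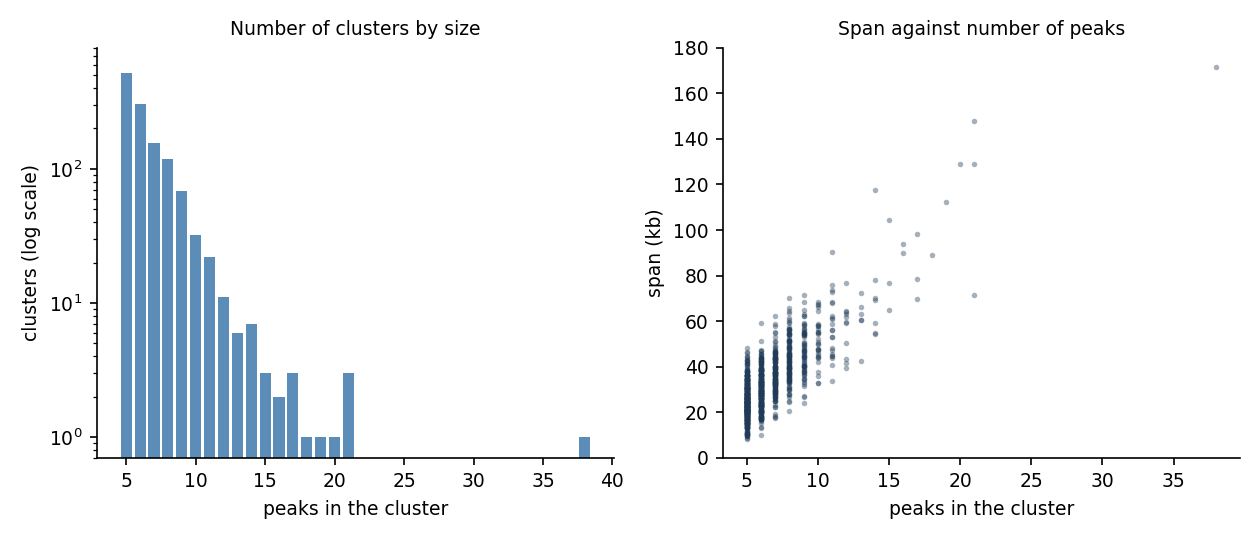
Left, number of YAP-ERMS clusters (log scale) by the number of peaks in a cluster; right, span of each cluster in kb against its number of peaks, with 1 point per cluster. Cluster number drops from 523 at 5 peaks to 1 each at 18, 19 and 20 peaks, and the cluster of 38 peaks stands apart from the 3 clusters of 21.

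The cluster with the most peaks lay on chromosome 3 at 107490898 to 107662581 (mm9). It held 38 peaks, 17 more than any other cluster, and it also had the longest span and the highest summed score, 17535. No single peak carried it: its highest peak had a score of 1899.86, which was 10.8% of the summed score. A pair of peaks came close to each other at the top, the one at 107624890 to 107626958 with 1899.86 and the one at 107539931 to 107541543 with 1795.83, about 85 kb apart. Another 4 scores of 1000 or more were spread over the span: 1457.46 at 107508435, 1262.38 at 107598602, 1258.51 at 107652792 and 1079.17 at 107516938. High peaks thus stood on both sides of the middle of the cluster. Between them were many low peaks: 22 of the 38 scored under 320, and the lowest, at 107610966 to 107611712, scored 89.06. The stretch around the middle, from 107557567 to 107580104, held 10 peaks of which the highest scored 354.75. The widest peak of the cluster was 3077 bp, the narrowest 747 bp, and the widest gap between neighbours 11.2 kb.

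**Figure D2:**
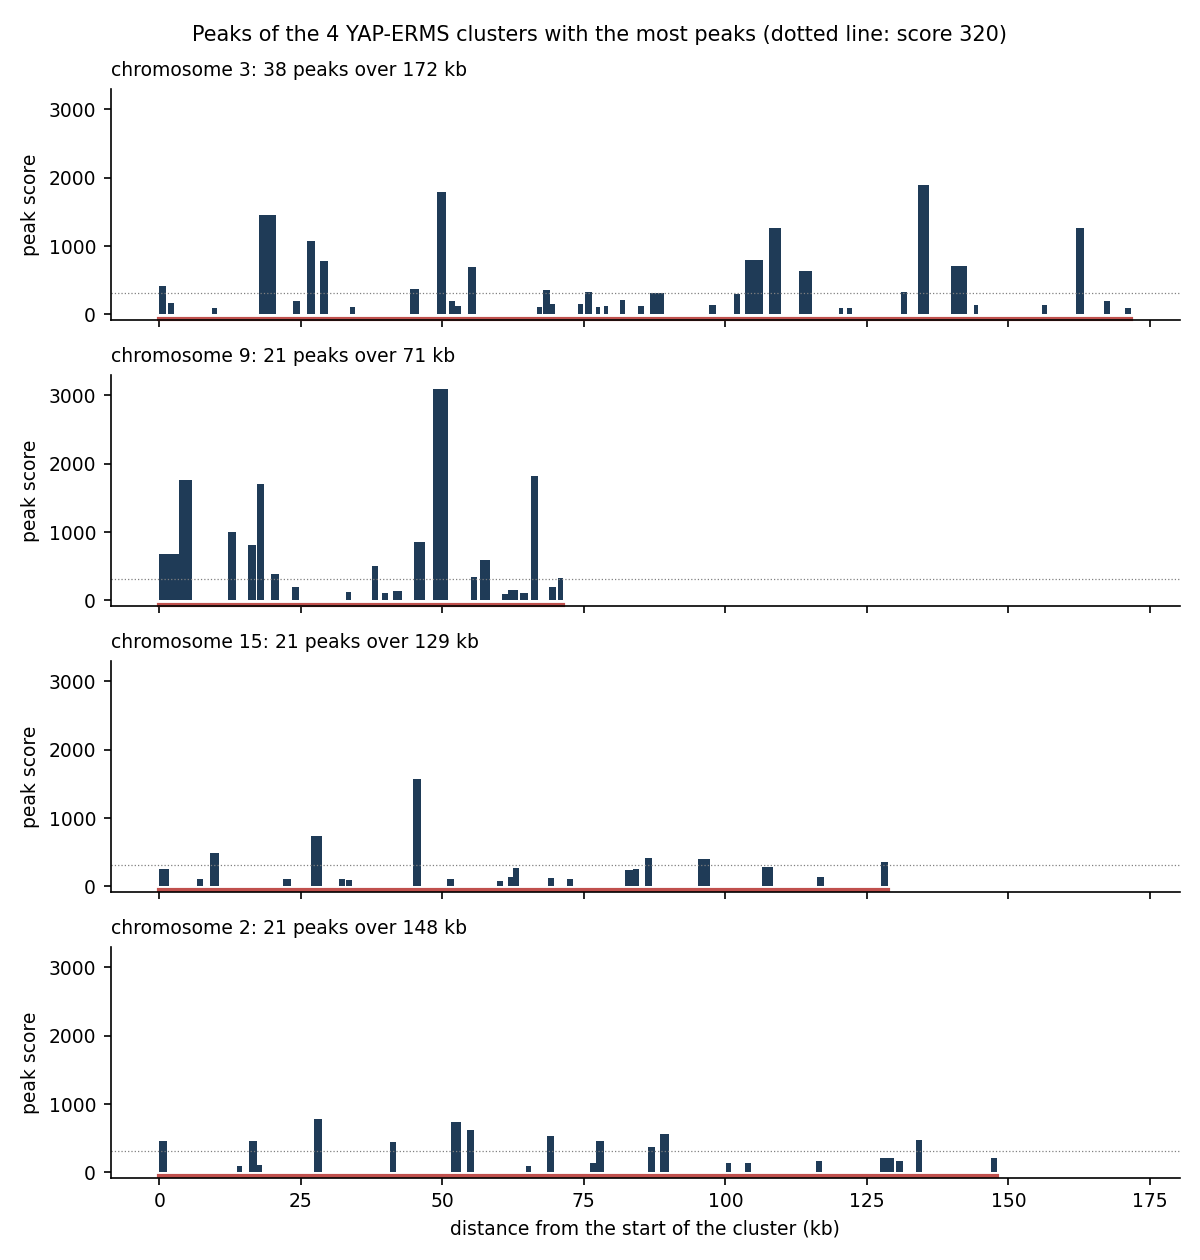
Peaks of the 4 clusters with the most peaks, as bars of each peak's width at its distance in kb from the start of the cluster (x axis), with the peak score as height (y axis); the red line is the span of the cluster and the dotted line a score of 320. The chromosome 3 cluster has high peaks on both sides of a stretch of low ones, the chromosome 9 cluster is the shortest and holds the highest peak (3100), and no peak of the chromosome 2 cluster exceeds 785.

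Clusters of 21 peaks each followed on chromosomes 9, 15 and 2, and they differed in their make-up. The chromosome 9 cluster, at 102615879 to 102687199, was the most compact of the 10 largest, with 2.94 peaks per 10 kb and 44.5% of its 71.3 kb span inside peaks. Its highest peak, at 102664265 to 102666825, had a score of exactly 3100, and 4 others scored 1000 or more: 1814.68, 1768.01, 1708.56 and 1000.15. Its first peak was also its widest, at 3411 bp, and lay 59 bp from the next. Its summed score of 15002, the second in the list, includes the peak at exactly 3100.

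The chromosome 15 cluster, at 10593287 to 10722097, had 1 high peak and 20 lower ones. That peak scored 1573.64 at 10638136 to 10639551, the next 736.52, and 15 of the 21 scored under 320. The chromosome 2 cluster, at 27613639 to 27761564, showed the opposite form, with no score of 1000 or more. Its highest peaks scored 785.3, 732.26 and 621.51, and 11 of its 21 peaks scored 320 or more, so its highest peak held only 10.7% of the summed score. It was also the most open of the 10, with 1.42 peaks per 10 kb and 17.7% of its span inside peaks. Its widest gap, 12.459 kb, was just under the limit.

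The other 6 of the 10 largest held 17 to 20 peaks. On chromosome 12 at 74454166 to 74583258, 20 peaks spanned 129 kb, with a highest score of 2445.75 and a second of 1218.36. On chromosome 15 at 77607157 to 77719545, 19 peaks spanned 112 kb, and this cluster had the widest peaks of the 10, with a median of 1828 bp and a widest of 4214 bp. Its 2 highest peaks were close in score, 2183.81 and 2004.67, and 17 of its 19 peaks scored 160 or more. The 18 peaks on chromosome 6 at 30998722 to 31087701 again had 2 leading peaks of near-equal score, 2001.02 and 1994.01. Clusters of 17 peaks lay on chromosome 5 (151938063 to 152016340, highest score 1631.46), on chromosome 12 (16835150 to 16904916, highest 1497.34) and on chromosome 15 (64005801 to 64104070, highest 1222.13). The chromosome 12 cluster of 17 had the highest median score of the 10, 454.88. In all, 3 of the 10 lay on chromosome 15.

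How far these domains depend on the joining distance varied among the 10. With gaps of up to 10 kb in place of 12500 bp, the clusters on chromosomes 9, 6, 5 and 12 (at 16835150) kept all of their peaks in a single chain. The chromosome 3 cluster then split into 3 chains, the largest with 21 peaks at 107557567 to 107635610. The chromosome 2 cluster and the chromosome 12 cluster of 20 peaks each split into 6 chains, with 11 and 6 peaks in the largest. The chromosome 15 clusters at 10593287, 77607157 and 64005801 split into 4, 2 and 2 chains, with 13, 14 and 16 peaks in the largest. With gaps of up to 15 kb, only the chromosome 15 cluster at 10593287 (to 24 peaks) and the chromosome 6 cluster (to 19 peaks) gained peaks among the 10. Following single clusters at other distances was a choice made after the data were seen.

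Scores inside a cluster were uneven. In the median cluster the highest peak scored 990 (interval 944 to 1040), the median peak 245 (239 to 253) and the lowest 98.1 (96.6 to 99.04). Over the 523 clusters of 5 peaks, the median scores from the highest to the lowest peak were 827, 382, 225, 145 and 100.01. Their highest peak held a median of 43.3% of the summed score. Clusters of 8 peaks began higher and ended near the same floor, with medians of 1253 for the highest, 676 for the second and 90.9 for the lowest peak. In the 93 clusters of 10 or more, the highest peak had a median score of 1547 and held 25.3% of the summed score. A larger cluster has more peaks from which to take its highest, so a higher maximum in larger clusters follows in part from the count alone. The median over clusters of their median score was 225 at 5 peaks, 255 at 6, 250 at 7, 266 at 8 and 260 at 9. It was 271 at 10 or more and 337 in the 15 clusters with 15 or more. At an even number of peaks the median of a cluster is the mean of its 2 middle scores. Even and odd sizes are therefore not directly comparable, and 225 is a low starting point.

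**Figure D3:**
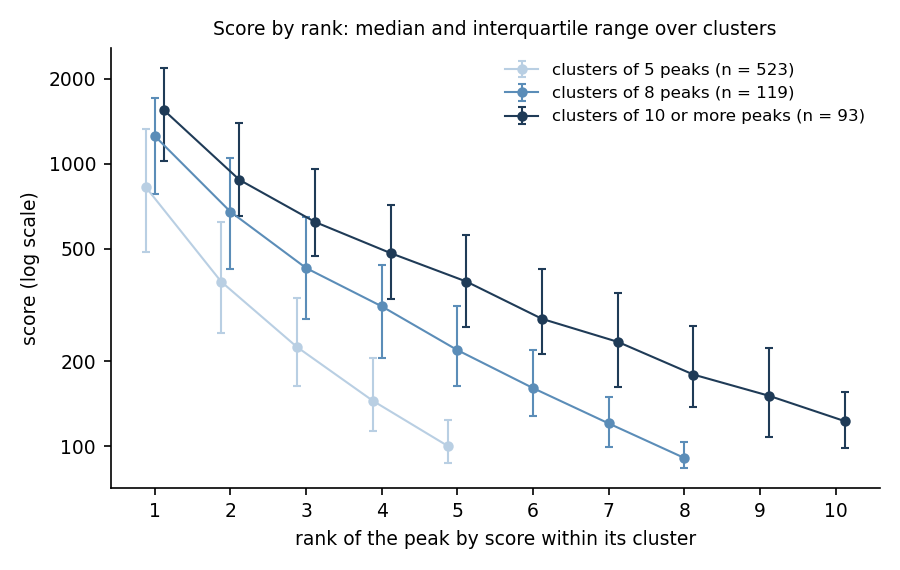
Score (log scale) of the peaks of a cluster by their rank within it, as the median (point) and interquartile range (bar) over clusters of 5 peaks, of 8 peaks and of 10 or more. The lines start at 827, 1253 and 1547 for the highest peak and go down with rank, with the largest step on the log scale between the first and second; for 10 or more peaks only the first 10 ranks are drawn.

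A single dominant peak was the exception. The highest peak scored a median of 1.63 times the second (interquartile range 1.23 to 2.51). It was at least 2 times the second in 457 clusters, or 36.1% (Wilson 95% interval 33.5% to 38.8%), and at least 5 times in 81, or 6.39% (5.17% to 7.88%). In 291 clusters, or 22.97% (20.7% to 25.4%), it was less than 1.2 times the second. The centres of the 2 highest peaks lay a median of 11.7 kb apart (interquartile range 6.02 to 18.4 kb). The highest peak held over 50% of the summed score in 296 clusters, or 23.4% (21.1% to 25.8%).

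Most clusters held a score of 320 or more, but many held none of 1000 or more. At least 1 peak with a score of 320 or more was present in all but 80 clusters (6.31%, 5.10% to 7.79%), and 597 clusters (47.1%, 44.4% to 49.9%) had 3 or more such peaks. For scores of 1000 or more, 644 clusters had none (50.8%, 48.1% to 53.6%), 429 had 1, 134 had 2 and 60 had 3 or more. In only 3 clusters did every peak score 320 or more. Among short chains, 37.8% had no score of 320 or more and 82.8% had none of 1000 or more. In the whole YAP-ERMS list the upper quartile of the score was 420, and 7.38% of peaks scored 1000 or more. A score of 320 is thus common in the list, and a chain with more peaks has more chances of either score. How far the counts for clusters go beyond this was not tested.

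Cluster peaks carried higher scores than the other peaks of the list. Their median score was 245 (interval 239 to 252), against 212 (209 to 215) in short chains and 182 (179 to 185) among isolated peaks. At the 90th percentile the scores were 1049, 851 and 699.8. A score of 1000 or more was held by 901 cluster peaks, or 10.9% (Wilson 95% interval 10.2% to 11.6%), by 7.53% (7.19% to 7.89%) in short chains and by 5.43% (5.09% to 5.78%) of isolated peaks. Scores under 100 made up 11.4% of cluster peaks and 16.6% of isolated peaks. The distributions overlapped widely, since the lower quartile was 133 in clusters and 114 among isolated peaks. In all, the 17.6% of peaks in clusters held 21.3% of the summed score of the list and 19.7% of the length covered by peaks.

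Seen from the score, the share of peaks that lay in clusters went up at each step. It was 14.0% (13.2% to 14.9%) for scores of 80 to 100, 16.9% (16.3% to 17.6%) for 160 to 320, and 21.4% (20.1% to 22.8%) for 640 to 1000. Above that it was 24.3% (22.8% to 25.96%) for 1000 to 2000, 32.1% (28.3% to 36.2%) for 2000 to 3000 and 35.0% (27.6% to 43.2%) for 3000 or more. The last interval overlaps the one before it, and a difference between these 2 steps was not tested. Over the same range the share of isolated peaks went from 41.0% to 20.0%. Of the 97 peaks at exactly 3100, whose scale is uncertain, 35 lay in clusters, and they make up part of the 49 cluster peaks at 3000 or more.

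**Figure D4:**
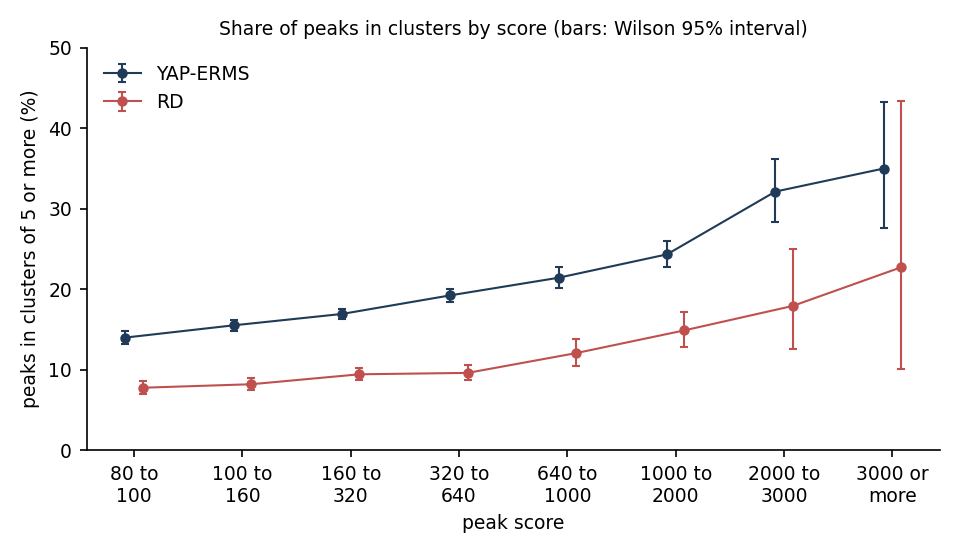
Percent of peaks that lay in clusters of 5 or more (y axis) by peak score (x axis, 8 ranges of unequal width), for YAP-ERMS and, for comparison under the same rule, RD; bars are Wilson 95% intervals from counts of peaks. The YAP-ERMS share goes from 14.0% to 35.0% and the RD share from 7.78% to 22.7%, where only 22 RD peaks are counted. The RD list has 22681 peaks and the YAP-ERMS list 47033, and the rule joins fewer peaks in a sparser list.

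Cluster peaks were also wider, with a median of 1176 bp (1165 to 1185), against 1098 bp (1093 to 1103) in short chains and 1028 bp (1024 to 1034) among isolated peaks. Since wide peaks tend to have high scores, width was also compared at matched score, by taking the log2 width relative to the median log2 width of those peaks that fell in the same of 50 score ranges. On this scale cluster peaks had a median of 0.07 log2 units (0.06 to 0.08), which is 4.90% wider than peaks of like score, short chains 0.01 (0.00 to 0.01) and isolated peaks -0.05 (-0.05 to -0.04). The order of the 3 kinds of peak was the same for score, for width and for width at matched score, and the differences were smaller at matched score.

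Pooled over clusters of all sizes, the peaks at the ends had somewhat lower scores and widths than those between them. The first and last peaks had a median score of 231 (219 to 242), and inner peaks had 252 (244 to 260). The median width was 1155 bp (1140 to 1169) at the ends and 1186 bp (1175 to 1198) between them. A larger cluster gives proportionally more inner peaks, and scores differed with cluster size, so size enters both comparisons. A difference within clusters of equal size was not tested. The highest peak was the first or last in 399 clusters, or 31.5% (29.0% to 34.1%). The mean share of first and last peaks in a cluster was 32.9%, so the highest peak stood at an end about as often as any peak.

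Neighbours in a cluster lay a median of 3.54 kb apart (interquartile range 1.31 to 7.07 kb, 7009 gaps). A gap of at most 1000 bp separated 1468 neighbours, or 20.9%, and 409, or 5.84%, were at most 200 bp apart, the smallest gap being 1 bp. The list gives no summits, and whether such peaks are pieces of a single enriched stretch was not tested. The scores of neighbours went little together: Pearson's r of the log scores was 0.03 and Spearman's rho 0.03 over the 7009 pairs, which share peaks and a library and get no p-value. It was 0.04 for gaps up to 1000 bp and -0.02 for gaps of 10000 to 12500 bp. Median scores were also taken over ranges of the gap, from at most 200 bp up to 10000 to 12500 bp. They were 413 to 482 for the higher of a pair and 142 to 156 for the lower. The higher had 482 at gaps of at most 1000 bp and 417 at gaps of 10000 to 12500 bp. The median ratio of the higher to the lower score was 2.16 to 2.32 over these ranges, so this contrast was similar at short and at long range.

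Clusters at the extremes of the list show how far the rule reaches. The shortest, on chromosome 11 at 21467672 to 21476010, packed 5 peaks into 8.34 kb, with 68.8% of the span inside peaks and gaps of 112 to 1116 bp. From left to right its peaks scored 87.04, 205.48, 288.52, 125.01 and 535.86. The next shortest lay on chromosome 3 at 89880789 to 89889495, with 8.71 kb and a first peak of 730.34, and on chromosome 12 at 91975523 to 91985012, with 9.49 kb and no score above 293.31. Most of the gaps in these groups were under or near 1000 bp, the distance at which peaks were joined in an alternative processing.

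The highest median score, 1342.46, belonged to a cluster of 6 peaks on chromosome 9 at 102524407 to 102553775. Its scores were 123.54, 992.97, 2065.37, 346.39, 1691.95 and 2176.17 in order of position, so 3 of the 6 peaks exceeded 1000 and another was just under it. Its median is the mean of the middle 2 of these, 992.97 and 1691.95. This cluster lay on the same chromosome within 62.1 kb of the 21-peak cluster at 102615879, and the pair together held 27 peaks. Next in order came chromosome 2 at 29546556 to 29573226, with 5 peaks and a median of 1224.37, and chromosome 1 at 155402700 to 155433631, with 5 peaks, a median of 1170.48 and a highest score of 3100. The third summed score of the list, 13062, was reached by only 12 peaks on chromosome 15 at 64301957 to 64365808, of which 5 scored 1000 or more and the first 3 scored 2627.33, 2770.04 and 2538.26.

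At the other end, some clusters held only peaks with low scores for this list, though all passed its limit of 80. The lowest highest score was 129.99, in a cluster of 5 peaks on chromosome 18 at 32312515 to 32333320, whose scores were 82.31, 83.78, 123.22, 87.44 and 129.99. Clusters of 5 peaks on chromosome 16, at 10295143 to 10320789 and at 37670737 to 37691091, had highest scores of 137.99 and 146.36. These groups met the rule by position, and none of their peaks would be left at a score limit of 160.

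Clusters were unevenly spread over the chromosomes. The share of a chromosome's peaks that lay in clusters was highest on chromosome 15, with 25.4% (Wilson 95% interval 23.8% to 27.1%, 100 clusters), and on chromosome 19, with 24.7% (22.5% to 26.9%, 54 clusters), and these intervals overlap. It was lowest on X, with 7.18% (5.67% to 9.05%, 11 clusters), and on chromosome 18, with 10.7% (9.21% to 12.3%, 28 clusters). Chromosomes with more peaks per Mb tended to have a larger share. A fixed joining distance by itself puts more peaks into chains where peaks lie denser, so the rule builds in such a tendency. Across the 20 chromosomes Spearman's rho between the share and the peaks per Mb was 0.70, and 0.65 without X; chromosomes of a single library are not independent samples and get no p-value. Some chromosomes stood off this order. Chromosome 12 had 15.3 peaks per Mb and 19.6% of its peaks in clusters (17.8% to 21.5%), while chromosome 10 had 22.1 peaks per Mb and 14.4% (13.1% to 15.7%). Chromosome 18 had 17.6 peaks per Mb and chromosome 6 had 18.1, with 10.7% and 20.0% (18.5% to 21.6%) of peaks in clusters.

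**Figure D5:**
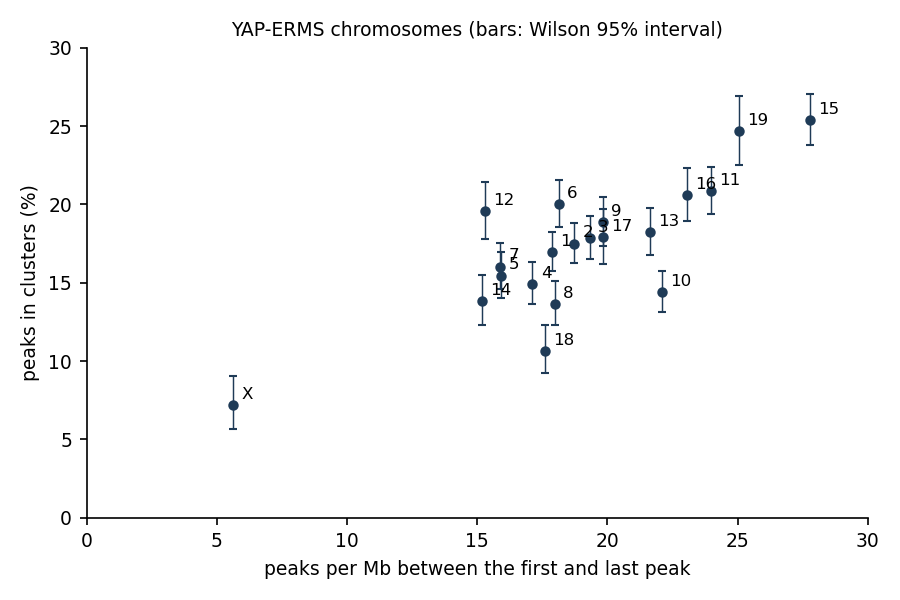
Percent of each chromosome's peaks that lay in clusters (y axis) against its peaks per Mb between the first and last peak (x axis). The 20 chromosomes of the YAP-ERMS list are shown. Bars are Wilson 95% intervals, which take peaks as independent and are too narrow. Chromosomes 15 and 19 lie at the upper right, X at the lower left, and chromosomes 10 and 18 lie under, and 12 and 6 above, others of like density.

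Large clusters were spread in another way. Of the 93 clusters with 10 or more peaks, 12 lay on chromosome 6, 11 on chromosome 15 and 9 on chromosome 3, and none on chromosomes 4, 8, 18 or X. Chromosome 15 thus held 11.8% of them, with 5.92% of all peaks and 707 of the 8276 cluster peaks. Chromosome 6 held more of them with fewer peaks, 2653 against 2783 on chromosome 15. The number of such clusters per chromosome is small, and no difference between chromosomes was tested. The median span of a cluster varied little among autosomes, from 26.6 kb on chromosome 8 to 34.3 kb on chromosome 19. The median of the highest scores ran from 756 on chromosome 14 to 1143 on chromosome 15.

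The limits of the rule cut through a continuous range. Chains of 4 peaks, just outside, numbered 1087 with a median span of 18.2 kb, a median highest score of 662 and a median of the median scores of 254. Clusters of 5, just inside, had 24.4 kb, 827 and 225. In clusters, 161 of the joined gaps were over 12000 bp, and 392 gaps of over 12500 and at most 13000 bp were not joined. At 116 of these 392 gaps the chains on both sides together held at least 5 peaks, and at 4 of them both chains were clusters.

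In RD the same rule gave 350 clusters with 2128 peaks, 9.38% of the 22681 peaks of the RD list. The YAP-ERMS list has 47033 peaks, and a fixed joining distance by itself gives fewer and smaller clusters in a sparser list. The median RD cluster held 5 peaks over 21.4 kb, with a highest score of 846 and 39.96% of the summed score in the highest peak, against 39.0% in YAP-ERMS. Its peaks covered 11.3% of the span, against 26.3% in YAP-ERMS, where peaks were wider throughout the list. By number, peaks lay denser in the median RD cluster, with 2.66 per 10 kb against 2.02 in YAP-ERMS. Cluster peaks of RD also had a higher median score, 217, than short chains, 199, and isolated peaks, 178. The lists come from different species, builds and controls, and scores depend on depth, so these values stand side by side and the differences between the cell lines were not tested.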

How the data were processed

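ChIP-seq libraries for TEAD and for input from YAP-ERMS cells, and for TEAD and IgG from RD cells, entered the study, with 1 library per group. Alignment was with Bowtie2 to mm9 for mouse and hg19 for human, per the submitters' processing notes and the sequence names. Each cell line has a single list of peaks from the authors, in which peaks are named as MACS names them. The deposited score was taken as the −log10 of a peak's p-value multiplied by 10, because it starts at 80 and the list's name states the matching limit. Tool versions, read filters, duplicate handling and depth are details not given in the sources used here. Such steps set which low peaks are listed and whether close peaks are listed apart, and so the size of clusters.

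From the deposited positions and scores, chains, clusters and their summaries were computed in Python 3.11.15 with pandas 2.3.3, numpy 2.4.6 and scipy 1.17.1. Peaks were sorted by position and chained at gaps of at most 12500 bp, and chains of 5 or more were kept. The chaining was checked on simulated lists. Positions are 1-based, and intervals are Wilson or order-statistic 95% intervals. Named clusters were the 10 with the most peaks (ties by highest score) and the 3 with the longest span, the shortest span, the highest summed score, the highest median score and the lowest highest score. The clusters and lists were chosen with earlier results of these data known. The planned gene lists and motifs need an mm9 annotation or sequence and were not used here. Alternatives were gaps of 10 and 15 kb, 4 or 6 peaks, scores of 160 or more, joining of peaks within 1 kb, and leaving out Y, random and unplaced sequences.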

Additional observations from a re-analysis of the deposited data

How the results depend on the processing

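Of 49 values under 7 alternatives, 16 stayed within the interval of the value reported (for the number of clusters, within 1.5 times) and 33 did not, as the construction of most alternatives requires; leaving out Y, random and unplaced sequences moved none. The number of clusters was 2354 with 4 peaks as the minimum, 744 with 6 and 409 at scores of 160 or more. It was 941 with gaps of 10 kb, 1544 with 15 kb and 853 with peaks within 1 kb joined. These 3 counts fall within the wide limit of 1.5 times but still differ from the 1267 reported. The percent of peaks in clusters was 12.504% with gaps of 10 kb, 22.3% with 15 kb, 26.8% with 4 peaks, 12.04% with 6 peaks, 8.55% at scores of 160 or more and 12.2% with peaks within 1 kb joined. The median span was 25.4 kb, 35.3 kb, 23.9 kb and 36.5 kb under the first 4 of these and 35.8 kb with peaks joined. The median score of cluster peaks was 238 with 4 peaks, 255 with 6, 408 at scores of 160 or more and 267 with peaks joined. Their median width was 1187 bp with gaps of 10 kb, 1159 bp with 4 peaks, 1195 bp with 6, 1353 bp at scores of 160 or more and 1236 bp with peaks joined. The median share of the summed score in the highest peak was 40.2% with gaps of 10 kb, 43.0% with 4 peaks, 36.3% with 6 and 36.97% at scores of 160 or more. The median number of clusters per 1000 peaks over the chromosomes was 26.6, and 18.8, 32.4, 49.4, 15.1, 14.6 and 18.5 with gaps of 10 kb, gaps of 15 kb, 4 peaks, 6 peaks, scores of 160 or more and peaks joined; these alternatives and those for single clusters were chosen after seeing the data. At scores of 160 or more, the largest chain left in the chromosome 3 cluster held 12 of its 38 peaks. In the clusters that stayed whole at 10 kb, the largest chain then held 8 of 21 peaks on chromosome 9 and 10 of 17 on chromosome 12. It held 14 of 18 on chromosome 6 and 14 of 17 on chromosome 5. No paired analysis was possible because each group has 1 library. Without input or TEAD counts, how depth limits the low peaks is unknown.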

Other observations

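Clusters themselves lay near each other in places. Within 100 kb of another cluster were 392 of the 1267 clusters (30.9%), in 177 neighbourhoods of 2 or more, and within 25 kb 146 clusters (11.5%). Those named here were picked once their values had been seen. The fullest held 5 clusters each, on chromosome 12 at 71612527 to 72008688, with 39 peaks in its clusters and a highest score of 3100, and on chromosome 6 at 17145499 to 17513329, with 38 peaks and a highest score of 2699.66. On chromosome 7 at 117758366 to 117951657, 4 clusters held all 31 peaks of a 193 kb stretch, with a highest score of 3214.2. On chromosome 16 at 43455898 to 43593636, 4 clusters of 5 or 6 peaks held all 23 peaks of 138 kb, with a highest score of 1762.93.

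A single cluster lay on no assembled chromosome. It was on the random sequence chr9_random at 412228 to 446671, with 7 of the 9 peaks listed on that sequence. Its highest score was 963.76 and its median 146.83.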
